A study of Homo sapiens with 6 samples.

Results

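Strong reverse transcription (RT) stops at adenosine (A) or cytidine (C) that were present before any dimethyl sulfate (DMS) was added are described here across 6 RT-stop libraries of U2OS cells, a human osteosarcoma line. The strength of a stop, E, is the stop count of a nucleotide divided by the mean count of its transcript, which is the sum of its listed counts over the largest listed position in any of the 6 libraries. A position was taken when its base was A or C, its E was at least 10 in either library without DMS, and both E values lay within 1.5-fold of each other. The mean count of the transcript had to be 1 or more in both of these libraries. The rule found 3816 positions, 2788 at A and 1028 at C, on 642 transcripts. They were drawn from 7253 strong stops at A or C and from 8204444 listed nucleotides in the whole series. The E values without DMS chose the positions, so they are given as a description only.

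Each condition had 1 library and no replicate, so no difference between conditions has a replicate check and no p-value is given. Poly(A)-selected RNA without DMS was reverse transcribed in K+ or in Na+, each at 150 mM by the sample labels. Purified RNA was refolded and treated with DMS in 150 mM K+ or Li+, and living cells, either unstressed or starved for 2 h, were treated with 8% DMS for 5 min. RT of all 4 libraries with DMS was in 150 mM K+. The labels of both libraries without DMS contradict the names of their files, and the labels are followed; the rule treats both alike, so the positions do not depend on this. The methods of the study name Li+ where the labels name Na+. U2OS is an established tumour line, and the data describe this line alone.

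DMS methylates the base-pairing face of A and C where these bases are unpaired and not covered by protein, and RT halts at the methylated base. Methylation by DMS at G falls on another face, and U reacts little under the usual conditions. RT also halts without any reagent, at stable structures, at some natural base modifications and near the ends of RNA fragments, and a probing experiment therefore carries a library without reagent as its background.

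Without DMS the listed stops summed to 35371061 (labelled K+) and 33507714 (labelled Na+). After DMS they summed to 21480565 for RNA refolded in K+, 31174408 for RNA refolded in Li+, 12999691 for unstressed cells and 24014417 for starved cells. The minimum without DMS was met by 2723 of 15739 transcripts. The markers of a mesenchymal line were read as listed stops per nucleotide, which compares genes per length. In the library labelled K+ without DMS, the level of VIM, the mesenchymal intermediate filament, was 58.9, that of SPARC 9.62, of COL1A1 3.90, of FN1 1.57 and of CD44 1.27. RUNX2 was at 0.0375, ALPL was at 0 in that library and COL1A2 was not listed. The epithelial EPCAM was at 0.0400 and CDH1 at 0.00189, blood PTPRC at 0.00305 and endothelial PECAM1 at 0.00192, and KRT5, CD3E and ALB were not listed. Starved cells had less SPARC than unstressed cells (2.27 against 4.88), and lower also were COL1A1 (0.512 against 1.51) and FN1 (0.207 against 0.380), although the library of starved cells had more listed stops in all. These levels are not scaled for depth: VIM (33.8 against 21.4) and CD44 (0.627 against 0.473) were higher in starved cells by less than the total was, and RUNX2 (0.0754 against 0.0141) by more. The epithelial EPCAM was also higher by more than the total, at 0.0329 against 0.00538.

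Of 5302 strong stops at A, 2788 (52.6%, 95% Wilson interval 51.2 to 53.9) lay within 1.5-fold in both libraries without DMS, and of 1951 at C, 1028 (52.7%, 50.5 to 54.9). By the same rule 1791 of 6503 strong stops at G (27.5%) and 1221 of 2378 at U (51.3%) were found. These intervals cover counting error only. The stops at A lay on 540 transcripts and those at C on 341, with 239 transcripts holding both. The median E without DMS, over both libraries, was 10.9 at A and 11.2 at C, with quartiles of 9.83 and 13.3 at A and 10.1 and 14.7 at C. The median count per library was 21.0 at A and 24.5 at C, and 178 positions at A and 52 at C had fewer than 10 stops in a library.

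Just inside E of 10 at A was RALY with E of 10.0 and 7.23, and just outside was AMOTL2 with 9.999 and 7.73, giving the value labelled K+ first. Just inside 1.5-fold at A was CARHSP1, with counts of 11 and 10 and E of 10.6 and 7.07, and just outside was COLGALT1 with E of 7.19 and 10.8. At C the nearest positions were RALY, at 10.0 and 7.96, inside E of 10 and ADAR, at 9.99 and 8.41, outside it. GSK3A, at 9.11 and 13.7, was inside 1.5-fold and COX20, at 16.2 and 10.8, outside it.

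Most of these stops shared their transcript with others. On 235 transcripts there was 1 position at A and on 176 there was 1 at C, but the largest number on a transcript was 81 at A and 38 at C, both on RPL27A, which encodes a large ribosomal subunit protein. In RPL27A 97.2% of the stops without DMS fell in the densest 10% of the length, and the 119 positions at A or C lay between positions 363 and 819 of 4871. CD59, an inhibitor of complement, held 76 positions, and NACA, a subunit of the nascent polypeptide-associated complex, and VAPA, a tether of the endoplasmic reticulum, held 71 each. The 10 transcripts with most positions held 17.8% of those at A and 21.0% of those at C. A stop was called peaked where its count was at least 5 times the mean of the other nucleotides within 25 nt in the libraries without DMS, a criterion chosen after the data were seen. Peaked were 173 positions at A (6.21%) and 161 at C (15.7%).

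Ratios to no DMS used transcripts whose mean was 1 or more with DMS as well. Of the 2788 positions at A, 1563 on 252 transcripts entered for refolded RNA, 1044 on 143 for unstressed cells and 1628 on 232 for starved cells. Of the 1028 positions at C, 606 on 171 transcripts, 466 on 123 and 594 on 153 entered. In all 6 libraries the minimum was met for 959 positions at A and 414 at C. Positions on the same transcript share their fragments and are not replicates.

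On transcripts past the minimum in all 6 libraries, the median E at A was 12.2 (labelled K+) and 11.9 (labelled Na+) without DMS. It was 16.8 and 16.4 for RNA refolded in K+ and Li+, 15.3 in unstressed cells and 17.4 in starved cells. At C the medians were 12.5 and 12.7 without DMS, 8.67 and 8.76 for refolded RNA, 9.31 in unstressed cells and 8.86 in starved cells. At A every library with DMS was thus above both libraries without it, and at C every one was below them. For strong stops at U, chosen by the same rule, the median E was 12.3 and 12.2 without DMS and between 1.62 and 3.49 with it, and at G it was 12.04 and 12.07 without DMS and between 4.08 and 7.51 with it.

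**Figure D1:**
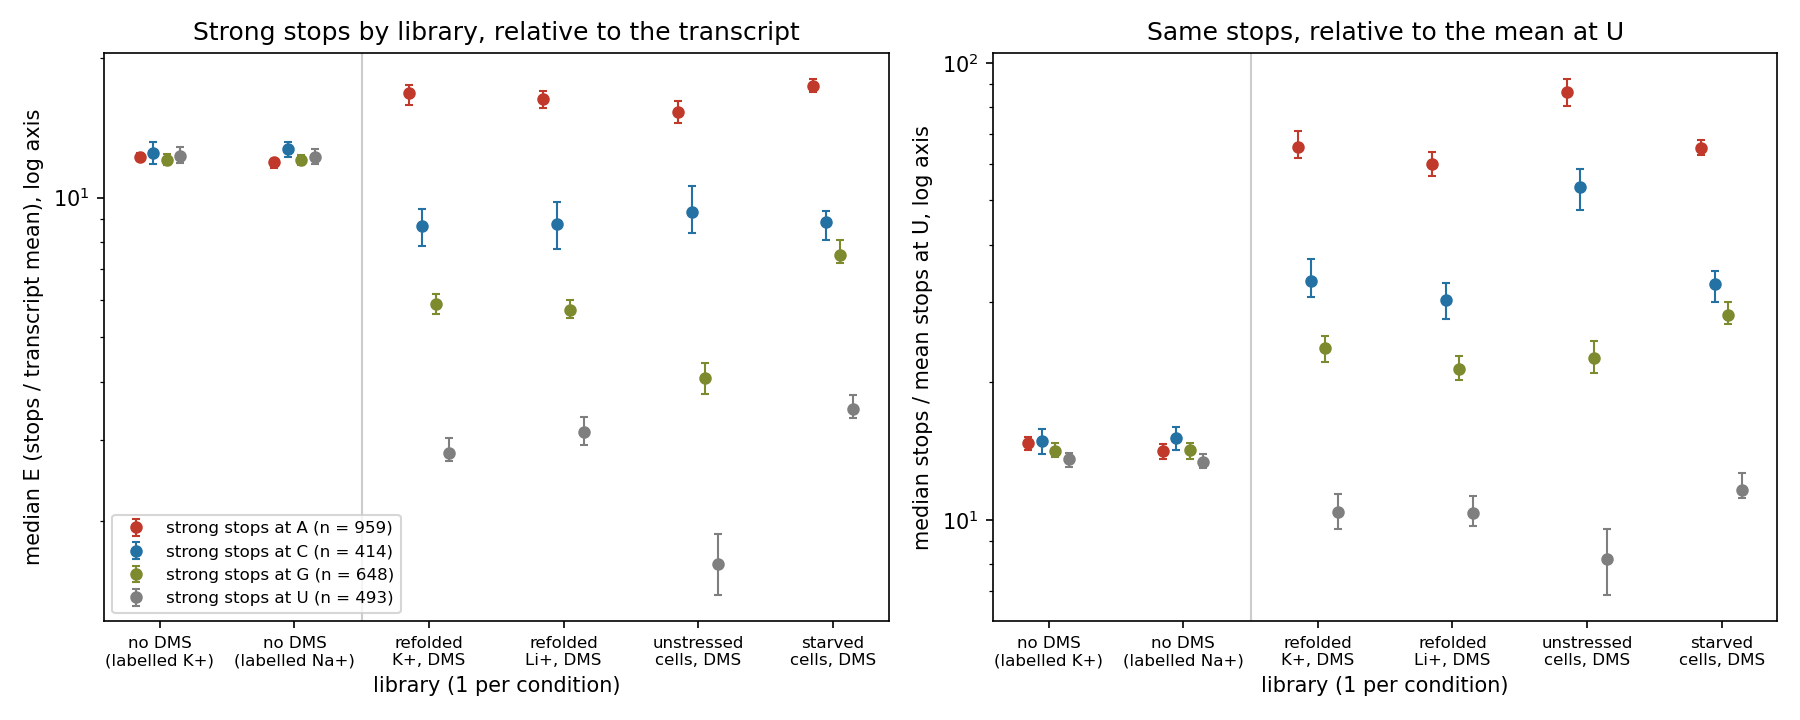
Median stop strength of strong stops at A, C, G and U in each of the 6 libraries, on transcripts past the minimum in all of them, with 95% order-statistic intervals over positions. The left panel gives E and the right panel the count relative to the mean at U, both on log axes; at C the medians with DMS lie below those without DMS on the left (8.67 to 9.31 against 12.5 and 12.7) and above them on the right.

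The median log2 E ratio to no DMS at A was 0.27 (95% order-statistic interval 0.21 to 0.31) for refolded RNA, 0.24 (0.17 to 0.29) for unstressed cells and 0.37 (0.34 to 0.41) for starved cells, or 1.203-fold, 1.182-fold and 1.293-fold. The intervals cover variation over positions and not between cultures, and the denominator holds the values that chose the positions. Of the positions at A, 206 of 1563 (13.2%) were at least 2-fold higher in refolded RNA, beside 26.3% of all 169952 positions at A with at least 10 stops in both libraries without DMS. In unstressed cells 195 of 1044 (18.7%) were at least 2-fold higher, beside 32% of all such positions, and in starved cells 225 of 1628 (13.8%), beside 29%. At least 2-fold lower were 108 (6.91%, beside 4.25%), 124 (11.9%, beside 15.4%) and 68 (4.18%, beside 7.69%). The rule asks for an E of 10 in either library only, and on transcripts past the minimum in all 6 libraries 86.3% (labelled K+) and 82.6% (labelled Na+) of stops at A had it without DMS. On these transcripts 79.7% and 79.1% had it in RNA refolded in K+ and Li+, 72.99% in unstressed cells and 86.97% in starved cells. The share in starved cells was thus above both libraries without DMS, and the other libraries with DMS were below them. The margin over the library labelled K+ was small, at 834 against 828 of 959 positions. The positions were chosen by E in the libraries without DMS, so this order is a description only. Over the sets used for the ratios, 1154 of 1563 (73.8%), 748 of 1044 (71.6%) and 1313 of 1628 (80.7%) had it. Of all positions at A, not chosen for a high E, 4.398%, 8.85% and 7.51% had it. With 1 position per transcript, the strongest, the median log2 ratio at A was -0.11 (-0.21 to 0.01) for refolded RNA and -0.14 (-0.31 to 0.09) for unstressed cells, with intervals that include 0, and 0.12 (0.02 to 0.21) for starved cells. The strongest position was picked on the denominator of this ratio, and the cause was not tested.

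At C the median log2 E ratio was -0.81 (-0.94 to -0.64) for refolded RNA, -0.55 (-0.66 to -0.41) for unstressed cells and -0.59 (-0.67 to -0.52) for starved cells. At least 2-fold lower were 261 of 606 positions (43.1%) in refolded RNA, beside 31.4% of all positions at C, 168 of 466 (36.1%) in unstressed cells, beside 29.9%, and 185 of 594 (31.1%) in starved cells, beside 30.7%. At least 2-fold higher were 19 (3.14%, beside 7.69%), 33 (7.08%, beside 17.6%) and 11 (1.85%, beside 6.85%). On transcripts past the minimum in all 6 libraries, E was at least 10 at 82.4% (labelled K+) and 89.4% (labelled Na+) without DMS. There it was so at 43.96% in RNA refolded in K+ and in Li+, 46.9% in unstressed cells and 42.3% in starved cells. Over the sets used for the ratios, 223 of 606 (36.8%), 213 of 466 (45.7%) and 236 of 594 (39.7%) had such an E with DMS. Of all positions at C, not chosen for a high E, 0.927%, 2.69% and 0.932% had it. For strong stops at U the medians were -2.19, -3.16 and -1.93, and 693 of 732, 497 of 518 and 694 of 770 were at least 2-fold lower, beside 91.6%, 91.7% and 84% of all positions at U. At least 2-fold higher at U were 0 (beside 0.0399%), 3 (beside 0.189%) and 3 (beside 0.152%). For strong stops at G the medians were -1.21, -1.74 and -0.84.

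E is a share of the stops of a transcript, so stops that DMS adds elsewhere lower it, and the same counts were also set against the mean at U of the transcript, from the deposited ratio. On this scale the median log2 ratio to no DMS was 1.95 (1.90 to 2.01), 2.47 (2.39 to 2.54) and 2.08 (2.04 to 2.12) at A for refolded RNA, unstressed and starved cells. At C it was 0.86 (0.73 to 1.04), 1.71 (1.53 to 1.85) and 1.06 (0.98 to 1.14), above 0, whereas on the E scale it was below 0. Strong stops at G were above 0 on this scale too, at 0.49, 0.47 and 0.85, and those at U below it, at -0.46, -0.89 and -0.26, so a value above 0 is not particular to A and C. For all positions with at least 10 stops it was 2.25, 2.66 and 2.19 at A and 1.24, 2.00 and 1.15 at C. The lower medians of strong stops are a description only, because the rule chose them for high values in the denominator of this ratio. Relative to the mean of the same base, the median at A was 9.55 and 9.75 without DMS and 6.84 to 8.10 with it, and at C it was 15.9 and 15.8 without DMS and 8.41 to 11.96 with it.

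**Figure D2:**
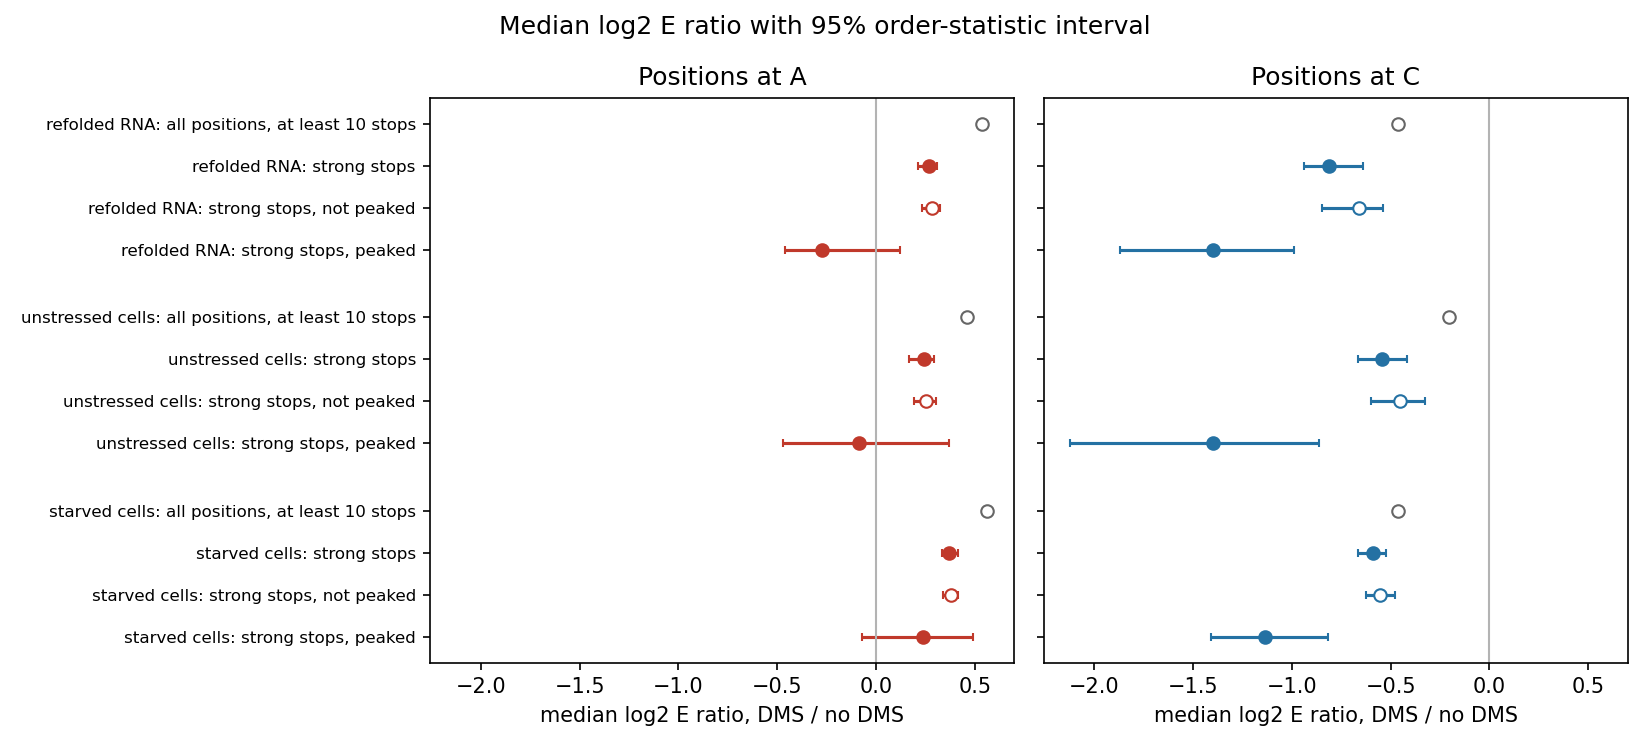
Median log2 ratio of E with DMS to E without DMS at A and C, for all positions with at least 10 stops in both libraries without DMS, all strong stops, and strong stops that were not peaked or were peaked; bars are 95% order-statistic intervals over positions. At C peaked stops had the lowest medians, -1.40, -1.40 and -1.14 for refolded RNA, unstressed and starved cells.

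How far DMS added to stops present before it was read as the difference on the scale of the mean at U, over transcripts past the minimum in all 6 libraries. This reference is itself not fixed: on the same scale the median at strong stops at U was 13.6 and 13.4 without DMS and 8.22 to 11.7 with it, and at G it was 14.2 in both libraries without DMS and 21.4 to 28.1 with it. Of U with E of 0.5 to 2 in both libraries without DMS, on transcripts that hold a strong stop at A or C, 69.4% and 56.3% were not listed for RNA refolded in K+ and Li+, 86.4% in unstressed cells and 66.8% in starved cells. Stops made by DMS were not separated from changes of this reference, and the cause of the difference was not tested. At A the median level before DMS was 14.3 times the mean at U, and the median difference was 50.0 and 43.9 for RNA refolded in K+ and Li+, 70.7 in unstressed cells and 51.0 in starved cells. It was above 0 at 943, 942, 937 and 951 of 959 positions. The difference exceeded the level before DMS at 854, 833, 855 and 894 of the 959. These counts were not made over all positions at A. At strong stops at A the median ratio to no DMS on this scale was 4.399, 4.06, 5.69 and 4.44. For A with E of 0.5 to 2 it was 6.38, 5.65, 7.65 and 5.01. A higher level with DMS was thus not particular to strong stops at A. At C the median before DMS was 14.6, and the median difference was 18.2 and 13.1 for refolded RNA, 37.1 in unstressed cells and 16.9 in starved cells. It was above 0 at 329, 343, 361 and 364 of 414 positions, and exceeded the level before at 225, 199, 300 and 212. Nor were these counts made over all positions at C. For C with E of 0.5 to 2 the median ratio was 3.04 and 2.89 in refolded RNA, 4.62 in unstressed and 2.29 in starved cells. At strong stops at C it was 2.17, 1.91, 3.42 and 2.06. The median ratio of the difference to that at an average A of the same transcript was between 6.33 and 7.67, and at C, to that at an average C, between 6.23 and 8.87. Strong stops were chosen for a high level before DMS, so these ratios to an average base are a description only. Relative to the mean of the same base, the medians of strong stops were lower with DMS than without it, as given above.

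Peaked stops differed in value between A and C. At the 38 peaked stops at C on transcripts past the minimum in all 6 libraries, the level before DMS was 22.6 times the mean at U and the median difference was 2.39 and 3.12 for RNA refolded in K+ and Li+, 0.101 in unstressed cells and 1.43 in starved cells. It was above 0 at 20, 21, 19 and 20 of the 38, beside 329, 343, 361 and 364 of all 414 strong stops at C. At the 51 peaked stops at A, the level before was 18.7 and the median difference was 45.6, 42.4, 46.4 and 46.3, above 0 at 47, 47, 45 and 50 positions. Of all 959 strong stops at A it was above 0 at 943, 942, 937 and 951. Such counts were not made over all positions at A or C. On the E scale the median log2 ratio of peaked stops at C was -1.40 (-1.87 to -0.99) for refolded RNA, -1.40 (-2.12 to -0.86) for unstressed cells and -1.14 (-1.41 to -0.82) for starved cells. For peaked stops at A it was -0.28 (-0.46 to 0.12), -0.08 (-0.47 to 0.37) and 0.24 (-0.07 to 0.49).

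**Figure D3:**
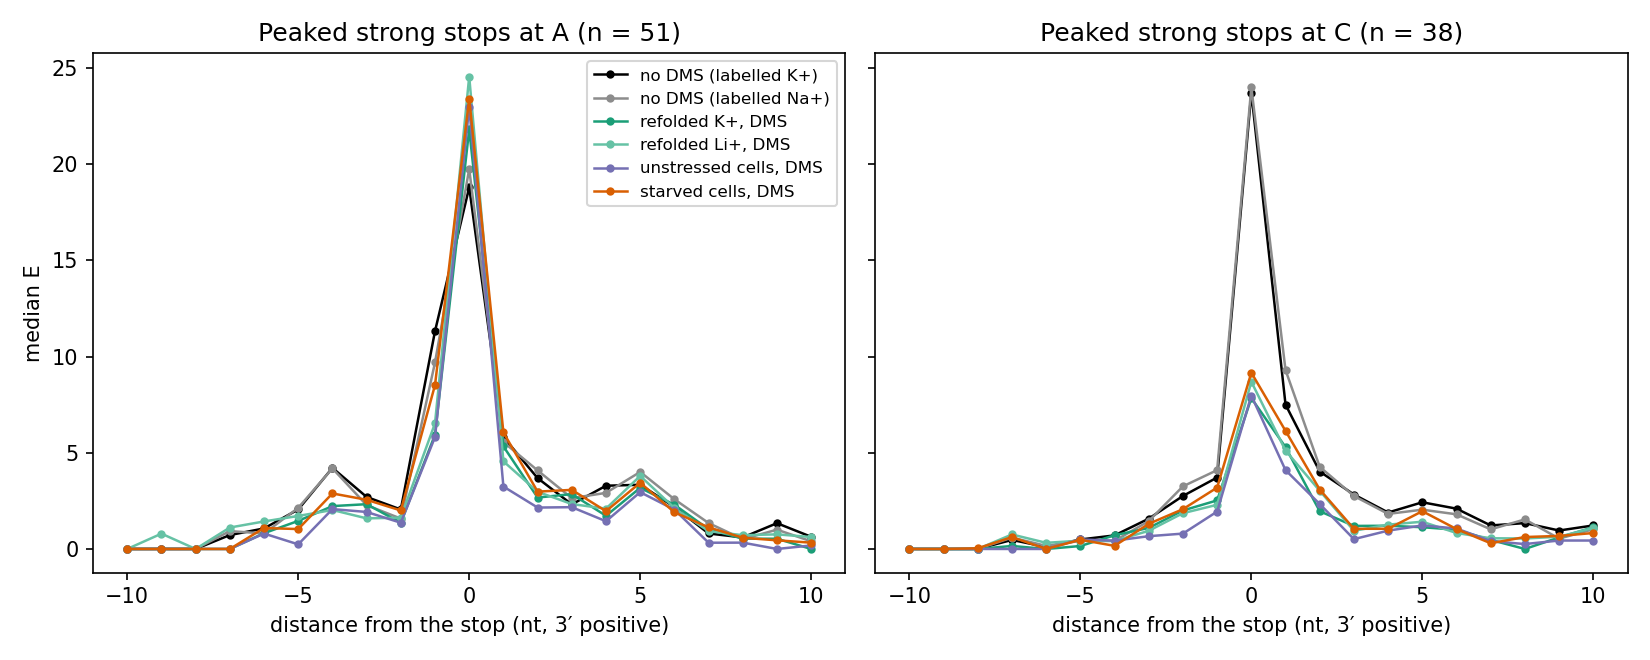
Median E from 10 nt before to 10 nt after peaked strong stops at A and at C, in each of the 6 libraries. At A the median at the stop was 18.8 and 19.7 without DMS and 21.8 to 24.5 with it; at C it was 23.7 and 24.0 without DMS and 7.84 to 9.16 with it.

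The nucleotide 5′ of peaked stops at A had a median E of 11.3 and 9.69 without DMS and of 5.82 to 8.52 with DMS. The nucleotide 3′ of them had 5.82 and 5.56 without DMS. With DMS it had 5.33 and 4.56 in RNA refolded in K+ and Li+, 3.24 in unstressed cells and 6.06 in starved cells. The nucleotide 3′ of peaked stops at C had 7.50 and 9.30 without DMS and 4.10 to 6.14 with it. At 10 nt on the 5′ side the median was 0 at both bases in every library.

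The largest E at A was on FOXP1, a forkhead transcription factor, at position 5095, with 5317 and 5601 stops without DMS and 2521, 3316, 4515 and 3676 with it, in the order refolded in K+, refolded in Li+, unstressed and starved cells. This transcript was below the minimum in RNA refolded in K+ and is named after its values were seen. Among positions on transcripts past the minimum everywhere that had 20 or more stops in each library without DMS, 933 at A and 405 at C, the largest E at C was on FAM107A, at position 2121 of 2132. Its counts were 5337 and 5262 without DMS and 2718, 3621, 4014 and 3646 with it, and it took 71.1% of the stops of its transcript without DMS. The A at position 2118 of FAM107A had the largest E at A in this group. Neither FOXP1 nor FAM107A was matched to GENCODE, so their stops are not placed in a region. Whether these stops arise from these genes was not checked.

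Copies of transcripts were not searched for here, and the authors kept only reads at unique positions without mismatch. Several of the strongest positions lay on transcripts that may have near-identical copies, where assigning a stop to 1 copy would be uncertain. At A these were NM_001190476 and NM_001190708, which have no symbol here, ANXA2P2, a pseudogene of ANXA2, MTRNR2L1, a nuclear copy of mitochondrial rRNA sequence, and RPS10-NUDT3, a readthrough transcript. At C they were ANXA2P2, NM_001190476, RPS10-NUDT3, RPL10L, an intronless relative of RPL10, and MTRNR2L1. Restricted to transcripts matched under the same symbol, the medians at A and C kept their signs, at 0.26, 0.24 and 0.36 at A and -0.87, -0.66 and -0.65 at C.

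Next in E at A were positions in NACA and in HNRNPA1, which were not checked for copies elsewhere in the genome; HNRNPA1 encodes an abundant nuclear RNA-binding protein. At HNRNPA1 E was 45.6 and 43.9 without DMS, 49.8 and 68.1 in RNA refolded in K+ and Li+, 42.3 in unstressed cells and 64.6 in starved cells. At NACA E was 45.4 and 44.9 without DMS, 72.6 and 76.2 in refolded RNA, 48.1 in unstressed cells and 57.7 in starved cells. Both stops were therefore strong with and without DMS. The largest ratios of mean E with DMS to mean E without it at A were 6.01 at ANXA2P2, 5.83 at NM_001190476, 4.09 at RPL27A and 3.89 at RPL36A, which encodes another large subunit protein. Without DMS their counts were 0.991, 0.575, 0.688 and 1.22 times the mean of the other nucleotides within 25 nt. None of them was peaked, so their high E was shared by the bases around them. At RPL36A the stops were 110 and 129 without DMS and 327, 412, 243 and 951 with it.

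The smallest ratios at A were 0.224 at LY6E, a GPI-anchored surface protein, 0.297 at CYB5A, the electron carrier cytochrome b5, 0.324 at CYCS, cytochrome c of the respiratory chain, and 0.335 at LSM5, a subunit of Sm-like complexes on RNA. At LY6E the stops were 159 and 160 without DMS, 29 and 62 in RNA refolded in K+ and Li+, 12 in unstressed cells and 4 in starved cells. Its E was 23.5 and 23.9 without DMS and at most 9.87 with it, and no library with DMS reached either library without. At CYCS E was 16.0 and 15.3 without DMS and 4.39, 7.33, 2.50 and 6.04 with it.

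At C in its 3′ UTR, TNFRSF12A, the receptor of the cytokine TWEAK, had 579 and 558 stops without DMS, 45 and 90 in RNA refolded in K+ and Li+, 25 in unstressed cells and 65 in starved cells. Its E was 56.8 and 50.4 without DMS and 7.69, 10.9, 4.20 and 17.1 with it, a ratio of means of 0.186. PPIA, the peptidyl-prolyl isomerase cyclophilin A, had its stop in the 5′ UTR, with E of 52.1 and 52.3 without DMS and 26.0, 21.4, 10.7 and 19.2 with it. GABARAP, an autophagy protein with its stop in the 3′ UTR, named after its values were seen, had E of 40.7 and 35.9 without DMS and 7.99, 5.44, 4.43 and 11.6 with it. In these 3 genes every value with DMS was below both values without it. This did not hold for all of the 8 stops at C with the largest E. Among them the ratio of means was 1.34 at ANXA2P2 and 1.17 at NM_001190476, and 0.186 to 0.877 at the others.

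The smallest ratios at C were 0.0424 at ZFP36L1, which binds AU-rich elements of mRNA, 0.0991 at AUP1, a protein of lipid droplets and of protein degradation at the endoplasmic reticulum, 0.132 at PSENEN, a subunit of gamma-secretase, and 0.134 at MTRNR2L1. ZFP36L1 had 44 and 61 stops without DMS, 3 and 4 in refolded RNA, and was not listed at this position in either library of DMS-treated cells. AUP1 had 45 and 46 stops without DMS and 7 and 5 in refolded RNA, and was likewise not listed in either library of DMS-treated cells. PSENEN had 103 and 94 stops without DMS, and 4, 7, 8 and 20 with it. Among the largest ratios at C were 4.46 at NM_001190476, 3.06 at FAM107A and 2.93 at MTRNR2L1. Without DMS the counts at these positions were 0.702, 1.06 and 1.55 times the mean of the other nucleotides within 25 nt, so none was peaked.

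**Figure D4:**
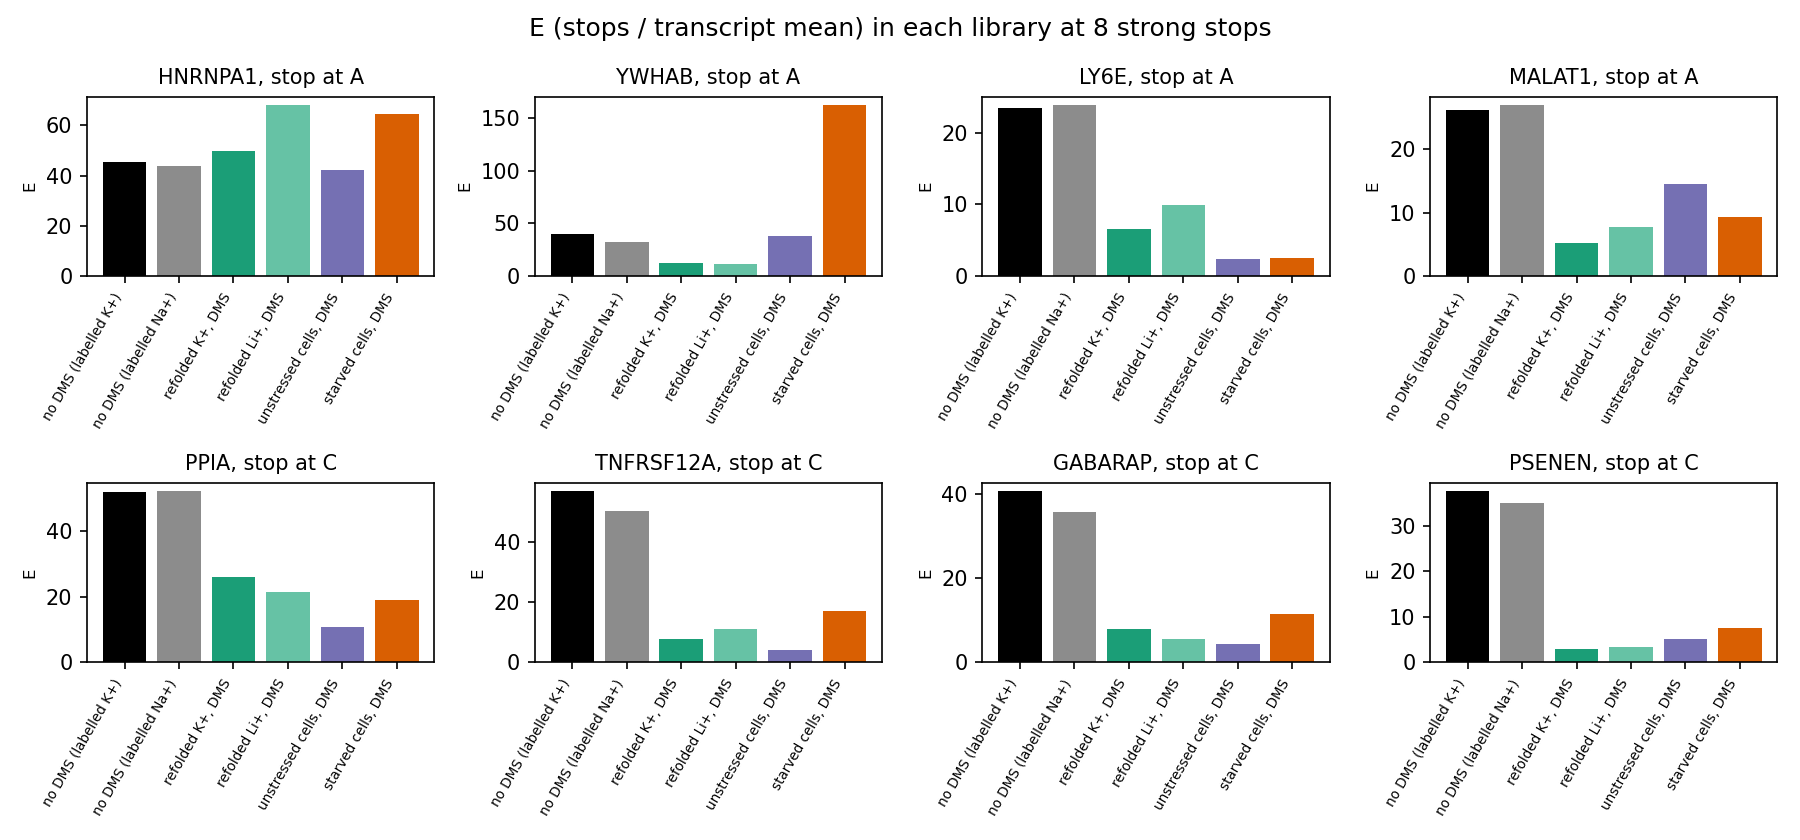
E in each of the 6 libraries at 8 strong stops, 4 at A in the upper row and 4 at C in the lower row; bars are single libraries without replicate and each panel has its own axis from 0. At the 4 stops at C every bar with DMS is below both bars without it, and at YWHAB the bar of starved cells, at 162, is the highest. The 8 stops were picked from longer lists, PSENEN and LY6E for a small ratio with DMS, so this is a description only. Stops at C with a higher mean E with DMS, such as ANXA2P2 with a ratio of 1.34, are not shown.

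YWHAB, which encodes a 14-3-3 adaptor protein and is named after its values were seen, differed most between libraries with DMS among these 8 stops. At its A in the 3′ UTR there were 426 and 319 stops without DMS, 79 and 106 in refolded RNA, 145 in unstressed cells and 590 in starved cells. E was 39.7 and 32.1 without DMS, 11.9 and 11.4 in refolded RNA, 38.3 in unstressed cells and 162 in starved cells.

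MALAT1, a nuclear long noncoding RNA, ends in a region that is processed to a small tRNA-like RNA. At an A in that region, position 8398, it had 108 stops in each library without DMS, 11 and 24 in RNA refolded in K+ and Li+, 23 in unstressed cells and 98 in starved cells. E was 26.1 and 26.9 without DMS and 5.18, 7.74, 14.5 and 9.21 with it. It was among the peaked stops. The A lies in the letters GTTCNANNC of the T loop of tRNAs, searched on the transcript strand with the stop at the A after the first N, a search chosen after this position was seen. In tRNAs the T loop commonly carries a methylated A that halts RT; no modification was measured here. The letters occurred at 4 of 2582 stops at A with sequence (0.155%), in NME1-NME2, MALAT1, PSMB2 and UBE2A, at 2 of 153 peaked stops at A (1.31%) and at 15 of 17900 ordinary A (0.0838%), so they describe few of these stops. Ordinary positions are those with E of 0.5 to 2 in both libraries without DMS on transcripts that hold a strong stop at A or C.

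The bases around the stops were not used by the rule. Of strong stops at C, 64.6% (61.5 to 67.6) were followed on the 3′ side by A, against 37.0% of ordinary C, and of those at A 45.1% (43.2 to 47.0), against 29.0% of ordinary A. At A, the base 5 nt to the 3′ side was A at 46.7% (44.8 to 48.6) of stops and at 64.5% (56.6 to 71.6) of peaked stops, against 26.3% of ordinary A. Peaked stops at C were followed by A at 33.1%, near the 37.0% of ordinary C. They were preceded by C at 43.9% and by G at 2 nt to the 5′ side at 48.9% (40.8 to 57.1), against 32.7% and 26.9% of ordinary C. The median log2 E ratio at C followed by A was -0.71, -0.60 and -0.58 for refolded RNA, unstressed and starved cells, and at C followed by C it was -1.69, -1.45 and -1.49, with 43, 30 and 21 positions in the latter group and an interval in starved cells that includes 0 (-2.25 to 0.03). Of the 60 strong stops at C followed by C, 45 were peaked, so this group largely repeats the peaked stops.

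Pairing of the stop base was predicted from 81 nt of sequence around it. Among strong stops at C 459 of 857 (53.6%, 50.2 to 56.9) were predicted as paired, against 56.0% of ordinary C, and among peaked stops at C 88 of 127 (69.3%, 60.8 to 76.6). At A 40.3% of strong stops (38.3 to 42.2), 43.8% of peaked stops (36.0 to 51.9) and 37.4% of ordinary A were predicted as paired. The median log2 E ratio of strong stops at C in refolded RNA was -1.27 (-1.40 to -1.03) where the base was predicted as paired and -0.44 (-0.58 to -0.29) where it was predicted as unpaired. Ordinary C in refolded RNA had a similar difference, with -0.79 (-0.83 to -0.74) for paired and 0.03 (-0.02 to 0.08) for unpaired bases, so it is not particular to strong stops. At strong stops at C in unstressed cells it was -0.97 (-1.14 to -0.79) and -0.29 (-0.50 to -0.13), and in starved cells -0.73 (-0.89 to -0.63) and -0.51 (-0.58 to -0.33). At A in refolded RNA it was 0.04 (-0.06 to 0.12) for paired and 0.38 (0.31 to 0.46) for unpaired bases, and ordinary A differed likewise, with 0.69 (0.66 to 0.72) and 1.02 (1.00 to 1.04). The intervals at A overlapped in unstressed cells, with 0.23 and 0.28, and in starved cells, with 0.34 and 0.38.

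Annotation was found for 2582 strong stops at A. Coding sequence held 993 of them (38.5%), the 3′ UTR 1397 (54.1%, 52.2 to 56.0), noncoding transcripts 93 (3.60%) and the 5′ UTR 99 (3.83%). Coding sequence held 55.0% of ordinary A, and the 3′ UTR 37.8%. Of 933 at C, coding sequence held 380 (40.7%), the 3′ UTR 421 (45.1%, 42.0 to 48.3) and the 5′ UTR 89 (9.54%), against 57.4%, 32.3% and 7.46% of ordinary C. The 3′ UTR thus held a larger share of strong stops than of ordinary positions. Within the last 50 nt of the listed length lay 176 stops at A (6.31%) and 51 at C (4.96%). The order of the regions differed between libraries. The median log2 E ratio at A was 0.17 (0.08 to 0.23) in 3′ UTRs and 0.32 (0.28 to 0.40) in coding sequence for refolded RNA, but 0.53 (0.47 to 0.58) and 0.28 (0.23 to 0.32) in starved cells. In unstressed cells the intervals overlapped, with 0.31 and 0.23. In 5′ UTRs the median at A was 0.52 (0.25 to 0.64) for refolded RNA, over 75 positions. It was -0.07 (-0.39 to 0.18) in unstressed cells, over 66, and 0.22 (-0.02 to 0.36) in starved cells, over 82. At C it was -0.32 (-0.50 to -0.16) in 3′ UTRs and -0.76 (-0.86 to -0.66) in coding sequence in starved cells. The intervals at C overlapped for refolded RNA, with -0.87 and -0.92, and for unstressed cells, with -0.45 and -0.60.

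Libraries with DMS were also compared with each other, where neither value was used by the rule. Between RNA refolded in K+ and in Li+ the median log2 E ratio was 0.02 (0.00 to 0.04) at A and -0.02 (-0.06 to 0.02) at C. At least 2-fold higher in K+ were 37 stops at A (2.37%), beside 4.13% of all positions at A, and 19 at C (3.16%), beside 8.13%. At least 2-fold lower in K+ were 27 at A (1.73%, beside 3.96%) and 54 at C (8.97%, beside 11.7%). Without replicates these shares do not bear on a difference between cations.

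Between starved and unstressed cells the median log2 E ratio was 0.18 (0.13 to 0.23) at A, over 984 positions, and -0.09 (-0.15 to 0.00) at C, over 422. For all positions it was 0.06 at A and -0.36 at C. At least 2-fold higher in starved cells were 133 stops at A (13.5%, beside 17.9%) and 38 at C (9.05%, beside 15.4%), and at least 2-fold lower 22 at A (2.24%, beside 10.1%) and 26 at C (6.19%, beside 25.6%). Over the same comparison the median was 0.92 at strong stops at G and 1.24 at those at U. These libraries differed in depth, with 12999691 listed stops for unstressed and 24014417 for starved cells, and its part in these differences was not tested.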

How the data were processed

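RT stops were measured in 6 U2OS libraries, 1 for each condition. The authors removed duplicate reads, trimmed the reads, mapped them with Bowtie (hg19 transcriptome; unique positions, no mismatch allowed), and deposited the stop counts of nucleotides with at least 3 stops. The deposited ratio divides a count by a mean of the transcript; in the files this mean is over nucleotides of the same base. Nucleotides not listed were taken as 0. Means, E, ratios, medians with 95% order-statistic intervals and shares with Wilson intervals were calculated here; they cover counting error or variation over positions only. Of 2723 transcripts 2627 (96.5%) were matched to GENCODE release 44 on GRCh37 by their listed bases, with 97% identity or more, over 80% or more of them, 2595 under the same symbol and 18 under another. For named genes the region is given only for the former. Symbols were taken from RefSeq. Pairing was predicted with RNAfold.

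The members and lists were chosen with earlier results of these data known. Named were, among positions with 20 or more stops in each library without DMS whose transcripts had a mean of 1 or more everywhere, the 8 at A and 8 at C with the largest E without DMS, and the 4 of each with the largest and with the smallest ratio with DMS, with the most extreme position of a gene in each group; not all of them are described. No test was made. The calculation was tested on simulated data. Tools were RNAfold 2.7.2, matplotlib 3.10.9, pandas 2.3.3, Python 3.11.15, scipy 1.17.1 and numpy 2.4.6.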

Additional observations from a re-analysis of the deposited data

How the results depend on the processing

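No paired analysis was possible because each condition had 1 library and no result comes from a test. The number of stops at A and C was 37372 and 13455 with E of at least 5, 276 and 133 with E of at least 20, 1664 and 658 within a narrower fold, and 1198 and 502 with a transcript minimum of 2; within 2-fold and with the rebuilt transcript mean both stayed within 1.5 times of those reported. Set against the mean at U, the medians at A were 1.95, 2.47 and 2.08 for refolded RNA, unstressed and starved cells, and those at C had the opposite sign, at 0.86, 1.71 and 1.06. With 1 position per transcript the medians at A were -0.11, -0.14 and 0.12, with the opposite sign in refolded RNA and unstressed cells, and at C -1.10, -0.89 and -0.75. Among peaked stops, an alternative chosen after seeing the data, they were -0.28, -0.0848 and 0.24 at A and -1.40, -1.40 and -1.14 at C. For refolded RNA at A the median was 0.47 with E of at least 20, 0.36 with a minimum of 2 and 0.15 with a minimum of 0.25 in the DMS libraries. For unstressed cells at A it was 0.31 with E of at least 5. For starved cells at A it was 0.42 with E of at least 20, 0.45 with a minimum of 2, 0.42 with a minimum of 0.25 and 0.42 with at least 20 stops. The cause of these differences was not tested, apart from the number of positions, which the alternatives themselves change. The other 68 values stayed within the interval or 1.5 times of the value reported, among them those with either library without DMS alone and with nucleotides not listed counted as 2, and with the same symbol in GENCODE, also chosen after seeing the data. Counting nucleotides not listed as 2 could hardly move a median. On transcripts past the minimum in all 6 libraries, at most 0.104% of strong stops at A and 2.17% at C were not listed in a library with DMS. Depth limits weak positions: counts under 3 are not listed, and a stop not listed with DMS may have up to 2 stops.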
